A study of Homo sapiens with 24 samples.

Results

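The comparison asked how far the glucose response of ZR-75-30 differed from that of HCC1500, and which genes moved in opposite directions in these 2 human breast carcinoma lines, both labelled ER positive. Cells spent 48 hours at a glucose concentration of either 5 mM (low) or 25 mM (high), in medium that the study's methods describe as serum-free, the higher dose standing for hyperglycemia. The members were all 17398 of 18889 listed genes whose normalized value reached 0.5 in 4 or more of the 15 fitted RNA-Seq libraries, 4 each for ZR-75-30 low, ZR-75-30 high and HCC1500 low glucose and 3 for HCC1500 high glucose. The fourth HCC1500 high glucose library, replicate 3, was left out for the reasons below and restored in a second fit. For each gene the difference was the log2 change of ZR-75-30 (high minus low) minus that of HCC1500, and a gene was called opposed when this difference and both single-line changes passed an adjusted p of 0.05 with opposite signs. The labels give replicate numbers and flasks without saying whether the replicates were independent experiments, so the p-values measure the spread between these libraries.

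Glucose entering a cell is phosphorylated and feeds glycolysis, nucleotide and lipid synthesis, and the glucose-sensing transcription factors MondoA and ChREBP read its phosphorylated products and switch on genes such as *TXNIP*. Interferon-stimulated genes are an antiviral and antigen-presentation program that tumor cells can run at a basal level with no virus present. Ribosome biogenesis factors, many of them targets of MYC, process ribosomal RNA in the nucleolus and follow the growth state of the cell. FOS and EGR1 are immediate early transcription factors downstream of the ERK kinase cascade, and SPRY and DUSP proteins are its feedback inhibitors.

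In ZR-75-30 the low glucose libraries held 9463981 to 13113305 recovered reads and the high glucose libraries 10611110 to 17871065. HCC1500 had 13190982 to 17998819 reads at low glucose and 9423472 to 12140912 at high glucose, so that depth and condition cannot be told apart in that line. HCC1500 high glucose replicate 3 stood apart. Its deviation from the other replicates fell with exon length (Spearman correlation across genes -0.540, against -0.151 to 0.187 in the other 15 libraries of both lines), its lowest Pearson correlation with a replicate was 0.957 against 0.988 to 0.992, and its deposited total was 7319781 against 5559394 to 5604083 in the other 3. Every result below is from the 15 libraries unless replicate 3 is named. Luminal keratins and *ESR1*, *GATA3* and *FOXA1* were present in both lines. Of the basal or mesenchymal markers, *VIM* was at most 1.35 in any fitted library, but others were present. *COL1A1* was between 78.1 and 116 in ZR-75-30 and between 169 and 256 in HCC1500. *ZEB1* was at most 2.03 in ZR-75-30, and in HCC1500 3.83 to 4.74 at low and 12.4 to 15.9 at high glucose. *ERBB2* was between 55500 and 72886 in ZR-75-30 and between 1073 and 1562 in HCC1500, while *CDH1*, encoding E-cadherin, was between 49.0 and 62.0 in ZR-75-30 and between 6704 and 8263 in HCC1500.

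The upstream sequences of a few genes are shown first, because the interferon-stimulated genes carry a short shared element. The interferon-stimulated response element was searched as GAAA, any 2 bases and GAAA again, on both strands in the 250 bases before each RefSeq gene start (GRCh38.p14), and CACGTG, the E-box that MYC can bind, in the same windows. The first was found in 1014 of 27305 genes (3.71%), in 19 of the 31 tested interferon-stimulated genes with a window (61.3%) and in 7 of 12 MHC class I presentation genes (58.3%), but in 2 of 29 ribosome biogenesis genes (6.90%). CACGTG was found in 2110 of 27305 genes (7.73%) and in 2 of 29 ribosome biogenesis genes (6.90%). Among the interferon-stimulated genes that were opposed, 7 of the 13 with a window held the response element (53.8%). A match is a description of these letters and not a measured binding site. The stretches that follow read 5′ to 3′ on the strand of the gene from 50 bases before the first match, for at most 110 bases or to the base before the gene start. Capitals mark the matches, in *TAPBP* a pair that overlaps, and 1 E-box gene is set beside the interferon and MHC class I genes for contrast.
IFIT1, chr10:89392457-89392566, plus strand: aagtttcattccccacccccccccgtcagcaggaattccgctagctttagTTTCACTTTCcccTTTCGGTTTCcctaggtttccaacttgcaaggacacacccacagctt
IFITM1, chr11:313950-314039, plus strand: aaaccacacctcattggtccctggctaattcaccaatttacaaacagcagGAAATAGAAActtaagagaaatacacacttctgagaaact
IFI44, chr1:78649721-78649788, plus strand: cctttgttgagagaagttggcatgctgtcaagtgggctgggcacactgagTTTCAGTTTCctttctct
TAP2, chr6:32838740-32838847, minus strand: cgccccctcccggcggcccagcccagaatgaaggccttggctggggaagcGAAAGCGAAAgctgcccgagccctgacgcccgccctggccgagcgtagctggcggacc
TAPBP, chr6:33314079-33314148, minus strand: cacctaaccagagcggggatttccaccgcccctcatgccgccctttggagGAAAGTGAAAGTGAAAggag
UTP20, chr12:101280045-101280104, plus strand, E-box: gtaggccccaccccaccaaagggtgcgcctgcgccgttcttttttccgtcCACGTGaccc

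Across the 2 lines 7437 of 17398 genes (42.7%) differed in their glucose response, 4726 with a higher (27.2%) and 2711 with a lower (15.6%) change in ZR-75-30. Of these, 1066 genes rose in ZR-75-30 and fell in HCC1500 (6.13% of the genes tested) and 571 fell in ZR-75-30 and rose in HCC1500 (3.28%). In the single lines, 3981 genes rose (22.9%) and 3877 fell (22.3%) in ZR-75-30, and 2949 rose (17.0%) and 5393 fell (31.0%) in HCC1500. Of the 4835 genes called in both lines, 3198 moved in the same direction and 1637 in opposite directions (33.9%). The other differing genes were mainly called in 1 line, 1898 in ZR-75-30 and 2420 in HCC1500, and 1295 moved the same way in both by unequal amounts. These shares of all tested genes are the background for the list counts below.

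The opposed changes were mostly small. Genes that rose in ZR-75-30 and fell in HCC1500 had a median change of 0.378 and -0.428 on the log2 scale, and the reverse group -0.262 and 0.291. A change of at least 0.5 in each line was reached by 223 and 38 genes, and of at least 1 by 28 and 9. The normalized values had no overlap between low and high glucose in both lines for 805 of the 1066 and 448 of the 571 genes. Including replicate 3, these numbers were 382 and 282. Calls in both lines favor such separation, and its share over all tested genes is not given here. With replicate 3 restored, the sign of the HCC1500 change was kept in 978 and 534 of the opposed genes, but their number fell to 344 and 167. The split between the directions depended on the scaling. The median difference over all genes was 0.123 as deposited, and 63.5% of differing genes were higher in ZR-75-30, against 51.3% after median-of-ratios rescaling, which gave 794 and 824 opposed genes. Under this rescaling, rescaling to equal totals and edgeR on the recovered reads alike, 629 and 500 of the genes were still opposed.

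**Figure D1:**
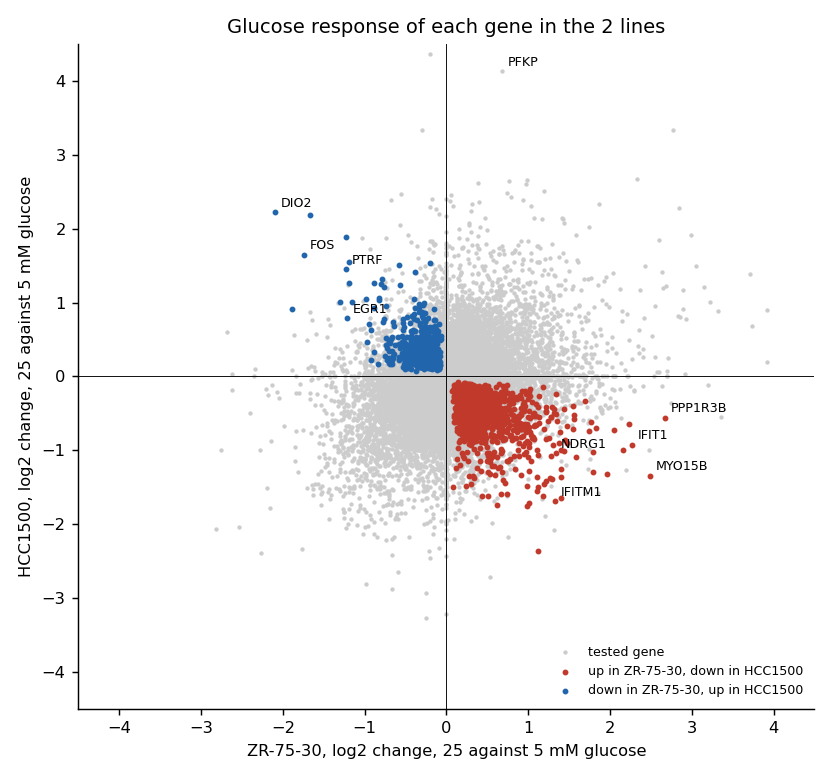
Log2 change from 5 to 25 mM glucose in ZR-75-30 (x axis) and HCC1500 (y axis) for each of the 17398 tested genes, with replicate 3 of HCC1500 high glucose left out. The 1066 genes that rose in ZR-75-30 and fell in HCC1500 lie in the lower right quadrant (red) and the 571 with the reverse pattern in the upper left (blue), most of them close to the origin.

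Interferon-stimulated genes mostly rose in ZR-75-30 and fell in HCC1500. Of 39 listed and tested genes, 22 rose and 1 fell in ZR-75-30, 24 fell and none rose in HCC1500, and 28 had a higher change in ZR-75-30 and none a lower one. The median change over the list was 0.54 in ZR-75-30 and -0.47 in HCC1500, and the median difference was 1.10, against 0.12 over all tested genes. The group called opposed held 16 members, and 14 of them were opposed under every scaling named above. With replicate 3 restored, 24 members were still higher in ZR-75-30 and none lower, the median difference was 1.01, and 8 members were opposed.

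*IFITM1* (chr11:314040-315272, GRCh38.p14), which encodes a membrane protein that blocks virus entry, had values of 8.31, 10.2, 12 and 8.40 in ZR-75-30 at low glucose and 22.4, 29.0, 22.5 and 29.5 at high glucose. In HCC1500 *IFITM1* had 11.8, 7.94, 13.4 and 13.8 at low and 4.13, 1.99 and 2.77 at high glucose, with 6.68 in replicate 3. Both lines started at a similar level and ended apart, with no overlap between conditions in either line, which the choice of this gene required. The log2 change was 1.33 ± 0.22 (SE) in ZR-75-30 and -1.69 ± 0.23 in HCC1500, and the difference was 3.02 ± 0.32 (adjusted p = 8.6e-07). *IFITM1* has 351 exon bases in common with another gene on its strand and close relatives in *IFITM2* and *IFITM3*, so the split of reads between them is uncertain.

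*IFIT1* (chr10:89392623-89406487), an interferon-induced protein that binds viral RNA, was at 3.32, 11.4, 11.4 and 3.82 in ZR-75-30 at low glucose and at 38.5, 27.7, 34.8 and 41.8 at high glucose. In HCC1500 *IFIT1* was at 55.1, 55.9, 49.9 and 57.3 at low and 27.1, 27.9 and 29.5 at high glucose, with 43.1 in replicate 3. The lines were thus far apart at low glucose and close at high glucose. The difference of changes was 3.20 ± 0.42 (adjusted p = 8.9e-06), and with replicate 3 restored the HCC1500 fall no longer passed (adjusted p = 0.07). *IFI44* (chr1:78649789-78664078), another interferon-induced gene, rose by 1.18 ± 0.32 in ZR-75-30 and fell by 1.62 on the log2 scale in HCC1500, from mean values of 1.84 ± 0.533 (SD, n = 4) and 11.4 ± 2.53 (SD, n = 4) at low glucose, which is close to the limit of these libraries in ZR-75-30.

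Of the antiviral effectors, *OAS1*, a sensor of double-stranded RNA, had changes of 0.98 ± 0.14 and -1.48 ± 0.16, and *MX1*, a GTPase that traps viral particles, 0.77 ± 0.23 and -1.12 ± 0.25. *IFIH1*, the cytosolic RNA sensor MDA5, had changes of 0.52 ± 0.09 and -0.53 ± 0.10, *DTX3L*, a ubiquitin ligase, 0.65 ± 0.08 and -0.45 ± 0.09, and *UBE2L6*, the conjugating enzyme for ISG15, 0.67 ± 0.06 and -0.66 ± 0.06. *ISG15* itself, with changes of 0.35 ± 0.23 and -0.39 ± 0.25, did not pass (adjusted p of the difference = 0.098).

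**Figure D2:**
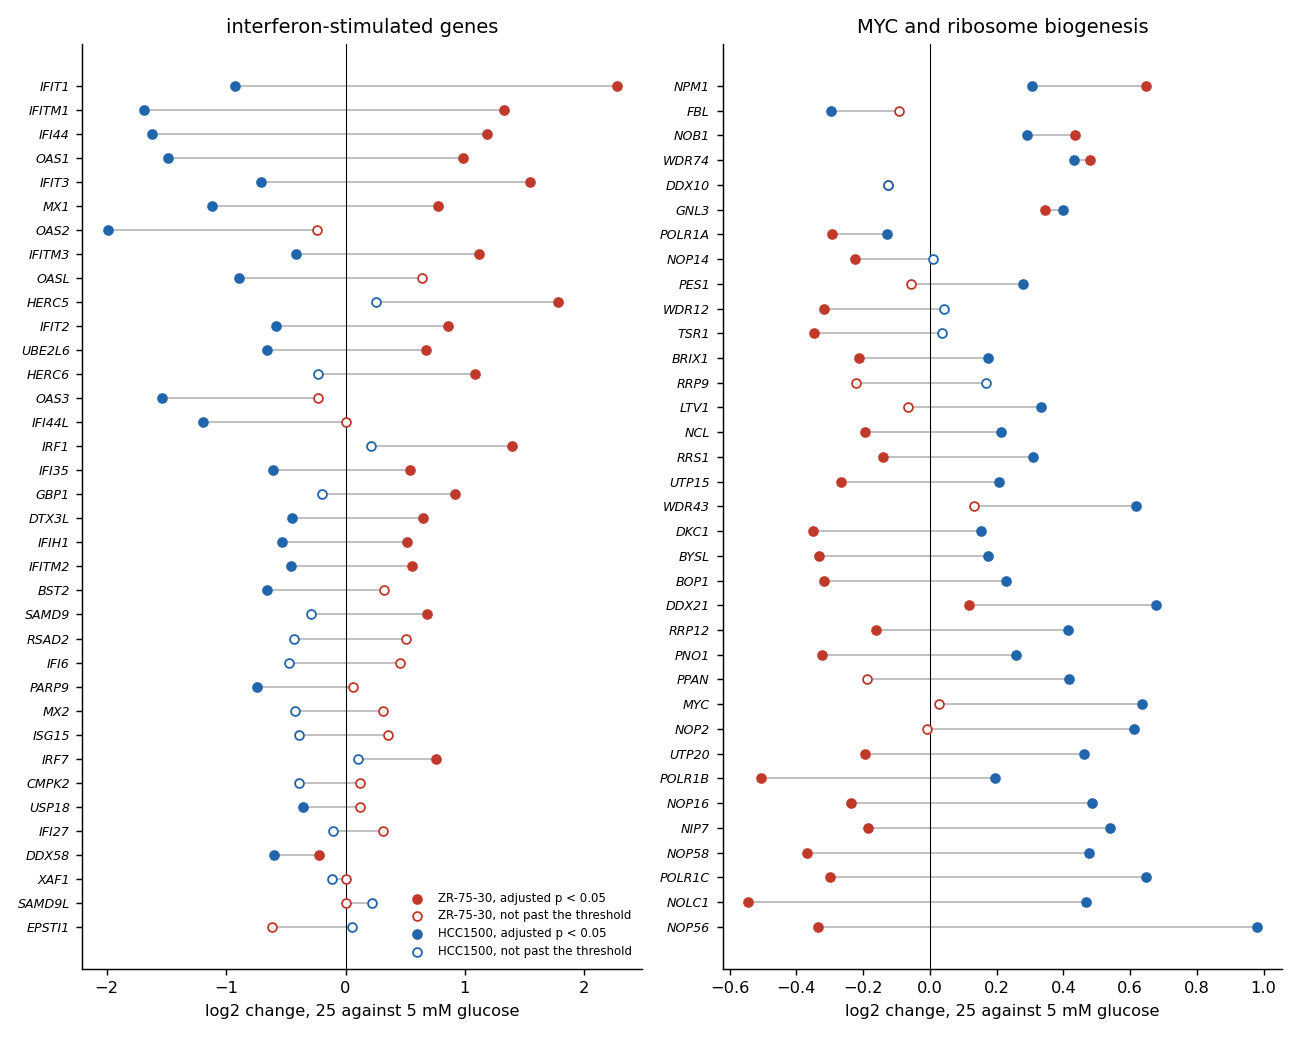
Log2 change from 5 to 25 mM glucose of the tested interferon-stimulated genes (left, without 3 genes not reported here) and MYC and ribosome biogenesis gene (right) in ZR-75-30 (red) and HCC1500 (blue), ordered by the difference between the lines, with filled circles for changes past the adjusted p of 0.05 and open circles for the rest. In the left panel the red points lie to the right of the blue ones for the differing genes. In the right panel they lie to the left for the 28 of 35 genes called lower in ZR-75-30, and to the right for the 2 called higher.

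MHC class I presentation genes differed as well, mainly because they rose in ZR-75-30. Of 15 genes, 13 rose in ZR-75-30 and none fell, while in HCC1500 5 rose and 3 fell, and 13 had a higher change in ZR-75-30. The median change was 0.92 in ZR-75-30 and -0.21 in HCC1500. With replicate 3 restored, 9 of the 15 were higher in ZR-75-30, none was lower and none was opposed, and the median difference was 1.07. Replicate 3 had a mean over this list 0.61 above the HCC1500 low glucose mean, against -0.05 to 0.02 in its companions. *TAP2* (chr6:32821831-32838739), a subunit of the peptide transporter of the endoplasmic reticulum, was at 74.8, 61.4, 57.5 and 64.1 in ZR-75-30 at low glucose and at 115, 114, 107 and 107 at high glucose. In HCC1500 *TAP2* was at 44.8, 47.6, 47.2 and 26.3 at low and 28.9, 13.9 and 28.6 at high glucose, with 45.3 in replicate 3, so that its conditions overlapped in this line. Its difference was 1.58 ± 0.30 (adjusted p = 4.0e-04), and 2023 of its exon bases are common to another gene on its strand.

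*TAPBP* (chr6:33299694-33314078), the chaperone that bridges MHC class I to the transporter, had means of 470.3 ± 49.1 (SD, n = 4) and 631 ± 34.6 (SD, n = 4) in ZR-75-30 and 1308 ± 44.1 (SD, n = 4) and 1017 ± 28.6 (SD, n = 3) in HCC1500, with 1444 in replicate 3. Its difference was 0.79 ± 0.09 (adjusted p = 1.4e-06; 0.0049 with replicate 3, where the HCC1500 fall did not pass at 0.11). Among the genes chosen here after their values were seen, *NLRC5*, the transactivator of MHC class I genes, went from 51.5, 41.5, 47.9 and 42.0 to 150.0, 177, 172 and 169 in ZR-75-30. In HCC1500 *NLRC5* was at 23.2, 21.6, 23.8 and 20.2 at low and 28.3, 22.4 and 15.7 at high glucose, where the conditions overlapped (adjusted p = 0.87). *B2M*, the light chain of MHC class I, rose by 0.92 ± 0.03 and 0.97 ± 0.03 with no difference past the threshold (-0.05 ± 0.04).

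Ribosome biogenesis genes showed the reverse pattern. Of 35 MYC and ribosome biogenesis genes, 21 fell and 5 rose in ZR-75-30, 28 rose and 2 fell in HCC1500, and 28 had a lower change in ZR-75-30 against 2 with a higher one. The median change was -0.19 in ZR-75-30 and 0.30 in HCC1500, and 17 members were opposed, 16 of them under every scaling named above. With replicate 3 restored, 24 members were lower in ZR-75-30 and none higher, but only 4 were opposed. Replicate 3 had a higher mean over this list than its 3 companions, 0.78 above the HCC1500 low glucose mean against 0.31 to 0.32, so that leaving it out made the HCC1500 rise smaller.

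*NOLC1* (chr10:102152389-102163870), a nucleolar chaperone of small nucleolar ribonucleoproteins, was at 1078, 1094, 1147 and 1057 in ZR-75-30 at low glucose and at 778, 724, 741 and 754 at high glucose. In HCC1500 *NOLC1* was at 594, 616, 614 and 563 at low and 823, 832 and 819 at high glucose, with 786 in replicate 3. The high glucose values of the lines were near each other, and neither line overlapped between conditions. The changes were -0.55 ± 0.04 and 0.47 ± 0.04 and the difference -1.01 ± 0.05 (adjusted p = 2.3e-10). *NOP58*, a core protein of box C/D ribonucleoproteins, fell by 0.37 on the log2 scale in ZR-75-30 and rose by 0.48 ± 0.06 in HCC1500. Its partner *NOP56* went from 1291 ± 30.8 (SD, n = 4) to 1023 ± 55.5 (SD, n = 4) in ZR-75-30 and from 413 ± 5.59 (SD, n = 4) to 816 ± 33.6 (SD, n = 3) in HCC1500. *NOP56* was chosen after its values were seen, as were *POLR1C*, a subunit shared by RNA polymerases I and III (-0.30 ± 0.07 and 0.65 ± 0.08), and *NCL*, encoding nucleolin (-0.19 ± 0.03 and 0.21 ± 0.03). *UTP20*, the E-box gene shown above, had changes of -0.19 ± 0.05 and 0.46 ± 0.05, but its value of 498 in replicate 3 was below the low glucose mean of 723, and with that library the HCC1500 change did not pass (adjusted p = 0.40). *MYC* had a change of 0.03 ± 0.04 in ZR-75-30 that did not pass (adjusted p = 0.64) and rose by 0.64 ± 0.05 in HCC1500, a difference of -0.61 ± 0.06 (adjusted p = 6.5e-07).

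**Figure D3:**
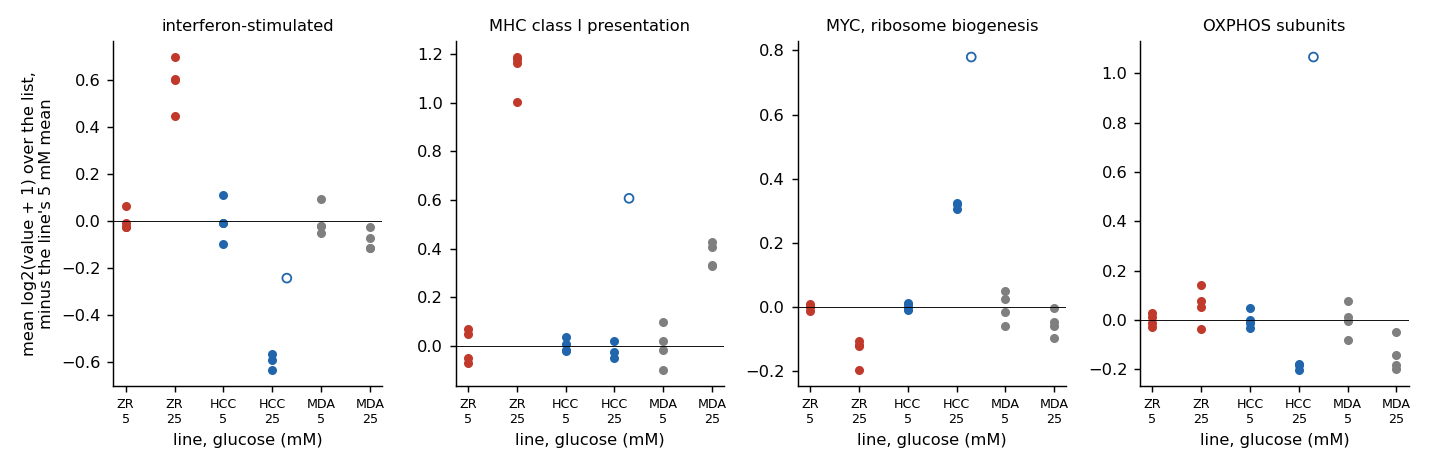
Mean log2(value + 1) over 4 gene lists in each library, minus the mean of the 5 mM libraries of the same line, for ZR-75-30 (red), HCC1500 (blue) and MDA-MB-175 (grey), with HCC1500 high glucose replicate 3 as an open circle. Interferon-stimulated genes were 0.45 to 0.70 above in the 4 ZR-75-30 high glucose libraries and 0.56 to 0.63 below in 3 HCC1500 libraries, with replicate 3 at -0.24, and for the oxidative phosphorylation (OXPHOS) subunits replicate 3 lay at 1.07 against -0.20 to -0.18.

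Amino acid response genes were divided. Of 31 genes controlled by ATF4, 13 rose and 9 fell in ZR-75-30, and 21 rose and 6 fell in HCC1500. In ZR-75-30, 9 had a higher and 14 a lower change, against 27.2% and 15.6% of all tested genes. These counts were 8 and 19 after median-of-ratios rescaling and 4 and 10 with replicate 3 restored. *ASNS* (chr7:97851677-97928441), asparagine synthetase, was at 319, 297, 297 and 311 in ZR-75-30 at low glucose and at 181, 214, 196 and 181 at high glucose. In HCC1500 *ASNS* was at 631, 619.7, 674 and 602 at low and 875, 948 and 929 at high glucose, with 1507 in replicate 3. The conditions did not overlap in either line, and the difference was -1.20 ± 0.08 (adjusted p = 3.5e-09). *ASNS* has 2415 exon bases in common with another gene on its strand. *SLC7A11*, the cystine importer that is also an NRF2 target, fell by 0.97 on the log2 scale in ZR-75-30 and rose by 0.46 ± 0.05 in HCC1500, where replicate 3 had 119.6 against 261 to 277 in its companions. With it the HCC1500 change did not pass (adjusted p = 0.56) and the difference did (-1.14, adjusted p = 0.0068). Chosen after their values were seen, *TRIB3*, a pseudokinase that restrains ATF4, had changes of -0.66 ± 0.04 and 0.24 ± 0.05, and *ATF5*, a related transcription factor, -0.73 ± 0.07 and 0.22 ± 0.08. *ATF4* and *DDIT3* were not opposed. *DDIT3*, a stress-induced factor, rose in both lines, by 1.19 ± 0.06 and 0.72 ± 0.07.

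Of 14 polyamine genes, 5 had a higher and 5 a lower change in ZR-75-30 and 3 were opposed, against 27.2%, 15.6% and, in the 2 opposed directions, 6.13% and 3.28% of all tested genes. After median-of-ratios rescaling 5 were higher and 7 lower, and with replicate 3 restored none was higher, 3 were lower and none was opposed. *ODC1* (chr2:10439968-10448327), ornithine decarboxylase, the first enzyme of polyamine synthesis, was at 292, 301, 282 and 308 in ZR-75-30 at low glucose and at 253, 253, 249 and 271 at high glucose. In HCC1500 *ODC1* was at 85.9, 87.3, 84.4 and 71.1 at low and 217, 239 and 268 at high glucose, with 335 in replicate 3. Its rise in HCC1500 (1.54 ± 0.08) was far larger than its fall in ZR-75-30 (-0.20 ± 0.07, adjusted p = 0.026). *AMD1*, which makes the aminopropyl donor for the same pathway, also rose strongly in HCC1500 (1.37 ± 0.04) but rose slightly in ZR-75-30 (0.17 ± 0.03), so the 2 enzymes had a difference of the same sign (-1.74 ± 0.10 and -1.20 ± 0.05) without both being opposed. *DHPS*, which uses spermidine to modify eIF5A, had changes of 0.40 ± 0.05 and -0.37 ± 0.05, and its difference did not pass with replicate 3 (adjusted p = 0.29).

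The immediate early genes *FOS* and *EGR1* fell in ZR-75-30 and rose in HCC1500. *FOS* (chr14:75278828-75282230), a subunit of AP-1, was at 181, 189.9, 205 and 191 in ZR-75-30 at low glucose and at 40.6, 64.8, 61.2 and 63.1 at high glucose. In HCC1500 *FOS* was at 19.0, 24.1, 21.1 and 17.7 at low and 80.2, 57.2 and 61.9 at high glucose, with 86.1 in replicate 3. The low glucose levels of the lines were far apart and the high glucose levels overlapped. The changes were -1.74 ± 0.14 and 1.65 ± 0.15 and the difference -3.39 ± 0.21 (adjusted p = 2.1e-09). *EGR1* (chr5:138465479-138469303), a zinc finger factor, had values of 1850, 1968, 1970 and 1870 at low and 771, 838, 849.5 and 845 at high glucose in ZR-75-30. In HCC1500 *EGR1* was at 8.74, 10.2, 11.5 and 11.6 at low and 20.6, 15.4 and 20.8 at high glucose, with 15.6 in replicate 3. The conditions of each line did not overlap, which the choice of *EGR1* required. The HCC1500 values stayed far below those of ZR-75-30 in both conditions. Over the 20 AP-1 and immediate early genes, 5 had a higher and 10 a lower change in ZR-75-30, against 27.2% and 15.6% of all tested genes. With replicate 3 restored the counts were 2 and 10. Opposed members of this list numbered 2 up and 2 down in ZR-75-30, the latter *FOS* and *EGR1*, against 6.13% and 3.28% of all tested genes. Under every scaling named above the opposed counts were 0 and 2, as they were with replicate 3 restored.

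The receptor tyrosine kinase and ERK feedback list held opposed genes of both directions, 5 up in ZR-75-30 and down in HCC1500 and 3 the reverse, among 28, against 6.13% and 3.28% of all tested genes. The opposed counts with replicate 3 restored were 1 and 1. *SPRY4*, a feedback inhibitor of the pathway, went from 1528 ± 35.5 (SD, n = 4) to 1026 ± 22.4 (SD, n = 4) in ZR-75-30. In HCC1500 it was at 3.80, 4.13, 8.44 and 4.74 at low and 17.1, 14.9 and 16.6 at high glucose, with 8.17 in replicate 3, the only one within the range of the low glucose values. *FGFR3*, a fibroblast growth factor receptor, had changes of 0.57 ± 0.17 and -0.79 ± 0.19, with low means of 8.91 in ZR-75-30 and 66.2 in HCC1500. Chosen after their values were seen, the phosphatases *DUSP5* and *DUSP4* were opposed in contrary senses. *DUSP5* had changes of 1.22 ± 0.04 in ZR-75-30 and -0.48 ± 0.04 in HCC1500, and *DUSP4* had -0.16 ± 0.03 and 0.63 ± 0.03. *ERBB3*, the partner receptor of ERBB2, rose by 0.13 ± 0.02 and fell by 0.74 on the log2 scale.

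The genes described next were chosen in each direction for a large change in both lines, ranked by the smaller of the 2 changes. *IFITM1*, *FOS* and *EGR1* above were chosen in the same way. The choice also required no overlap between conditions in either line, so that separation was set by the choice of these genes. *NDRG1* (chr8:133237175-133297252), a hypoxia-inducible and differentiation-related gene, had the smallest adjusted p among them. *NDRG1* was at 1107, 1044, 1065 and 1001 in ZR-75-30 at low glucose and at 2699, 2602, 2740 and 2598 at high glucose. In HCC1500 *NDRG1* was at 735, 800.4, 776 and 758 at low and 385, 376 and 355 at high glucose, with 444 in replicate 3. No condition overlapped, by the choice of the gene, and the difference was 2.38 ± 0.05 (adjusted p = 1.3e-14, and 1.2e-09 with replicate 3). Of the 23 hypoxia-inducible genes, *NDRG1* among them, 8 had a higher and 7 a lower change in ZR-75-30 (34.8% and 30.4%). The shares of all tested genes were 27.2% and 15.6%. With replicate 3 restored the counts were 7 and 5, and the opposed members went from 4 to 1.

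**Figure D4:**
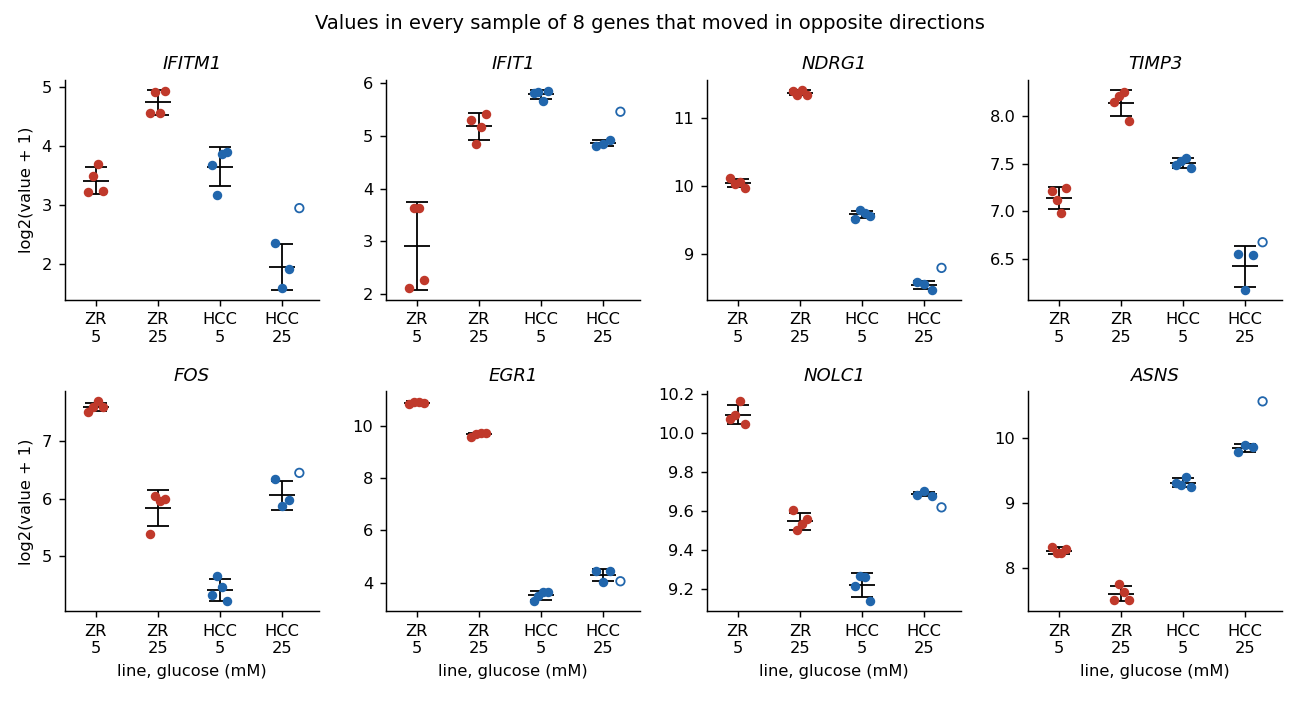
Log2(value + 1) in each library for 8 genes called opposed in ZR-75-30 (ZR, red) and HCC1500 (HCC, blue) at 5 and 25 mM glucose, with filled points for the fitted libraries, an open circle for HCC1500 high glucose replicate 3, and bars for the mean and SD of the fitted libraries. *IFITM1*, *IFIT1*, *NDRG1* and *TIMP3* rose in ZR-75-30 and fell in HCC1500, and *FOS*, *EGR1*, *NOLC1* and *ASNS* did the reverse.

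*TIMP3* (chr22:32801705-32863041), a matrix-bound inhibitor of metalloproteinases, was at 147, 138, 125 and 150.4 in ZR-75-30 at low glucose and at 284, 296, 303 and 245 at high glucose. In HCC1500 *TIMP3* was at 178, 184, 188 and 174 at low and 92.6, 71.1 and 91.9 at high glucose, with 101 in replicate 3. The means of the lines were 140.2 ± 11.2 and 181 ± 6.20 (SD, n = 4) at low glucose, and 282 ± 25.9 (SD, n = 4) against 85.2 ± 12.2 (SD, n = 3) at high glucose, a reversal of their order. *CERCAM* (chr9:128419160-128437351), described as an endothelial adhesion molecule, went from 59.8 ± 6.17 to 123 ± 5.83 (SD, n = 4) in ZR-75-30 and from 753 ± 50.5 (SD, n = 4) to 339.6 ± 11 (SD, n = 3) in HCC1500, but replicate 3 had 684, close to the low glucose values. *ATG16L2* (chr11:72814411-72843740), a homolog of an autophagy protein, had changes of 1.28 ± 0.13 and -1.08 ± 0.14. *PPM1J* (chr1:112709998-112715332), a protein phosphatase, had changes of 1.29 ± 0.17 and -1.39 ± 0.18, and its replicate 3 value of 49.8 lay near the low glucose values of 52.2 to 65.5. *ATHL1* (now *PGGHG*, chr11:289126-296107), an enzyme that removes glucose from hydroxylysine-linked sugars of collagen, went from 25.6 ± 3.82 to 68.8 ± 7.83 (SD, n = 4) in ZR-75-30 and from 22.6 ± 3.31 (SD, n = 4) to 9.0 ± 2.55 (SD, n = 3) in HCC1500. *MEGF6* (chr1:3487951-3624786), a protein with epidermal growth factor repeats, rose by 1.01 ± 0.18 and fell by 1.71 on the log2 scale.

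In the reverse direction, *DIO2* (chr14:80197526-80231057), the deiodinase that activates thyroid hormone, had the lowest difference among the called genes that passed a mean of 10 in at least 1 condition of each line. *DIO2* was at 17.2, 19.9, 34.2 and 23.7 in ZR-75-30 at low glucose and at 3.65, 3.38, 4.67 and 7.54 at high glucose. In HCC1500 *DIO2* was at 1.52, 1.91, 1.92 and 1.29 at low and 11.2, 13.4 and 9.69 at high glucose, with 10.4 in replicate 3. Thus the order of the lines was reversed between the conditions, and the difference was -4.32 ± 0.36 (adjusted p = 6.4e-08), although the low values correspond to few reads. *PTRF* (now *CAVIN1*, chr17:42402449-42423256), a coat protein of caveolae, was at 13.3, 11.4, 12.5 and 18.3 in ZR-75-30 at low glucose and at 4.17, 4.05, 10.6 and 4.11 at high glucose. In HCC1500 *PTRF* was at 52.1, 61.0, 50.2 and 54.3 at low and 138, 158 and 154 at high glucose, with 288 in replicate 3. No condition overlapped in either line, by the choice of the gene, and the difference was -2.67 ± 0.33 (adjusted p = 5.3e-06).

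*DHRS2* (chr14:23630115-23645639), a short-chain dehydrogenase, had changes of -1.31 ± 0.22 and 1.01 ± 0.24, from low means of 11.7 ± 2.30 and 13.4 ± 2.03 (SD, n = 4). *PCNT* (chr21:46324156-46445769), a scaffold of the centrosome, fell from 280.2 ± 24.8 to 164 ± 3.51 (SD, n = 4) in ZR-75-30 and, in HCC1500, rose from 559 ± 26.6 (SD, n = 4) to 958 ± 47.0 (SD, n = 3), a difference of -1.55 ± 0.08 (adjusted p = 3.3e-10). *IKBIP* (chr12:98613404-98644788), a membrane protein named for binding an IkappaB kinase, had changes of -0.74 ± 0.12 and 0.95 ± 0.13. *HIST2H4A* (now *H4C14*, chr1:149832657-149833052), a histone H4 gene with identical copies elsewhere, had changes of -1.18 ± 0.35 and 1.27 ± 0.38, with reads that cannot be assigned to 1 copy and high glucose values in ZR-75-30 spread from 5.48 to 27.7. *FAM107B*, a gene that earlier results of these data had named, fell from 433 ± 14 to 299.7 ± 10.4 (SD, n = 4) in ZR-75-30 and, in HCC1500, rose from 1470 ± 30.5 (SD, n = 4) to 2510 ± 101 (SD, n = 3).

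The highest differences overall included genes that rose from low levels in ZR-75-30. *PPP1R3B* (chr8:9136255-9151539), a subunit that targets protein phosphatase 1 to glycogen, was at 7.76, 9.67, 10.3 and 5.34 in ZR-75-30 at low glucose and at 57.8, 54.7, 46.7 and 69.2 at high glucose. In HCC1500 *PPP1R3B* was at 279.7, 278, 267 and 262 at low and 179.9, 183 and 189.7 at high glucose, with 157 in replicate 3. Neither line overlapped between conditions, and its difference was 3.23 ± 0.22 (adjusted p = 5.2e-09). *MYO15B*, listed as a myosin gene, had values of 0, 3.98, 0 and 4.58 at low and 5.73, 12.2, 16.1 and 17.1 at high glucose in ZR-75-30, where 1 read was worth between 0.425 and 0.763, and it was not opposed under every scaling. *RP11-496I9.1*, a clone-named gene that overlaps another gene on the opposite strand by 1097 exon bases, had a difference of 3.16 ± 0.36, and its value of 71.3 in replicate 3 lay within the low glucose range of HCC1500. *PFKP*, the platelet form of phosphofructokinase, rose in both lines. In ZR-75-30 *PFKP* was at 556, 528, 516 and 526 at low and 892, 878, 880.1 and 761 at high glucose. In HCC1500 it was listed at 0 in all 4 low glucose libraries, where 3 reads would be a value of 0.953 to 1.29, and at 18.3, 18.9 and 12.9 at high glucose, with 13.4 in replicate 3. Its fitted difference (-3.45 ± 0.15) depends on the pseudocount and ran from -7.38 to -1.35 over the alternatives, so it is not a bound.

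The glucose-responsive genes that check the labels rose in both lines. *TXNIP*, an inhibitor of thioredoxin and of glucose uptake, was at 648, 606, 603 and 605 in ZR-75-30 at low and 1077, 1058, 1025 and 1020 at high glucose. In HCC1500 *TXNIP* was at 2475, 2615, 2608 and 2525 at low and 5084, 5080 and 5081 at high glucose, with 5510 in replicate 3. Its rise was smaller in ZR-75-30, by -0.23 ± 0.04 (adjusted p = 3.9e-04). *ARRDC4*, a related arrestin, rose by 0.41 ± 0.11 and 0.37 ± 0.12, with a difference of 0.03 ± 0.16 that did not pass (adjusted p = 0.90). *MLXIPL*, which encodes the glucose sensor ChREBP itself, rose by 1.01 ± 0.15 in ZR-75-30 and fell by 0.46 on the log2 scale in HCC1500, where the fall did not pass with replicate 3 (adjusted p = 0.47). *MLXIPL* was also not opposed under every scaling.

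Of 30 genes of glycolysis and glucose uptake, 10 had a higher and 8 a lower change in ZR-75-30, and 6 were opposed, 3 in each direction, against 27.2%, 15.6%, 6.13% and 3.28% of all tested genes. The counts with replicate 3 restored were 5 and 5, with 2 and 1 opposed. *LDHA* (chr11:18394563-18408425), which makes lactate from pyruvate, was at 7079, 6869, 7161 and 7492 in ZR-75-30 at low glucose and at 5603, 5196, 5480 and 5081 at high glucose. In HCC1500 *LDHA* was at 2248, 2223, 2233 and 2198 at low and 2876, 3006 and 2801 at high glucose, with 4227 in replicate 3. The conditions were fully separated in both lines, with a difference of -0.80 ± 0.05 (adjusted p = 1.9e-09). *PFKM*, the muscle form of phosphofructokinase, moved the other way, from 549.5 ± 19.3 to 779 ± 37.1 (SD, n = 4) in ZR-75-30 and from 206 ± 9.03 (SD, n = 4) to 155 ± 10.6 (SD, n = 3) in HCC1500. *SLC2A1*, the glucose transporter GLUT1, had changes of 0.27 ± 0.03 and -0.25 ± 0.04, the latter -0.13 with replicate 3 and not past the threshold (adjusted p = 0.34). Chosen after their values were seen, *HK2*, hexokinase 2, had changes of 0.26 ± 0.03 and -0.41 ± 0.03, and *PGAM1*, a mutase late in the pathway, -0.54 ± 0.03 and 0.13 ± 0.04. The 3 opposed genes that rose in ZR-75-30 were *SLC2A1*, *HK2* and *PFKM*, and the 3 that fell there were *PGAM1*, *LDHA* and *ENO1*, the enolase of the pathway. Of these 6, *HK2*, *PFKM* and *LDHA* were opposed with replicate 3 restored.

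Lipid genes gave 13 higher and 5 lower of 29 in the fatty acid and lipid storage list, and 6 higher and 7 lower of 25 in the cholesterol list, where 18 genes fell in ZR-75-30 and 21 in HCC1500. Over all tested genes 27.2% were higher and 15.6% lower. The higher and lower counts with replicate 3 restored were 8 and 3 in the fatty acid list and 2 and 2 in the cholesterol list. *DGAT1*, which completes triglyceride synthesis, had changes of 0.66 ± 0.04 and -0.51 ± 0.05 (-0.23 with replicate 3, where the HCC1500 change did not pass, adjusted p = 0.41), and *AGPAT2*, an earlier enzyme of the same route, 0.59 ± 0.08 and -0.23 ± 0.09, the latter with a difference that did not pass with replicate 3 (adjusted p = 0.52). *MGLL*, monoglyceride lipase, which earlier results of these data had named, fell from 487 ± 22.6 (SD, n = 4) to 205 ± 6.77 (SD, n = 3) in HCC1500 and rose by 0.12 ± 0.04 in ZR-75-30 (adjusted p = 0.037). *STARD4*, a sterol transporter, had changes of 0.63 ± 0.15 and -0.59 ± 0.17, from means of 5.56 and 3.54 in HCC1500, and its difference did not pass with replicate 3 (adjusted p = 0.054). Neither *AGPAT2* nor *STARD4* was opposed under every scaling.

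Among 18 luminal transcription factors, 5 had a higher and 10 a lower change in ZR-75-30 and 6 were opposed (1 up and 5 down in ZR-75-30), against 27.2%, 15.6%, 6.13% and 3.28% of all tested genes. Restoring replicate 3 left 2 higher, 5 lower and 1 opposed. *KLF5* (chr13:73054976-73077538), a zinc finger factor of epithelial growth, was at 289.7, 327, 292 and 294 in ZR-75-30 at low glucose and at 231, 242, 261 and 258 at high glucose. In HCC1500 *KLF5* was at 79.4, 72.7, 63.7 and 69.3 at low and 149.8, 144 and 135 at high glucose, with 112 in replicate 3. All conditions were separated, and the difference was -1.27 ± 0.10 (adjusted p = 3.2e-08). *ESR1*, the estrogen receptor, had changes of -0.12 ± 0.04 and 0.29 ± 0.04, and *EHF*, an epithelial ETS factor, -0.25 ± 0.07 and 0.28 ± 0.07. Neither difference passed with replicate 3 restored at full weight (adjusted p = 0.13 and 0.90), where the *EHF* change in HCC1500 was -0.14, and both passed when that library was kept with sample weights. *ESR1* was not opposed under every scaling. *SPDEF*, an ETS factor of secretory cells chosen after its values were seen, rose by 0.16 ± 0.05 and fell by 0.89 on the log2 scale, from 1687 to 911 in mean value in HCC1500, with 2269 in replicate 3. Over 30 estrogen receptor targets, 7 had a higher and 10 a lower change, or 23.3% and 33.3%, and 5 and 5 with replicate 3. The opposed *RERG*, a growth-inhibiting small GTPase, had changes of 0.39 ± 0.09 and -0.52 ± 0.10.

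Proliferation and repair genes mostly fell in both lines, and with the deposited scaling none of the mitosis and DNA replication genes was opposed. After median-of-ratios rescaling, and with edgeR, 1 replication gene fell in ZR-75-30 and rose in HCC1500. All 40 mitosis genes fell in each line, and 38 fell less in ZR-75-30, with medians of -0.78 and -1.72. Restoring replicate 3 gave 31 that fell less and 2 that fell more. *MKI67*, the proliferation marker Ki-67, fell by 1.05 in ZR-75-30 and by 1.78 in HCC1500 on the log2 scale. Of 46 DNA replication genes, 45 fell in each line, with 6 higher and 13 lower in ZR-75-30, and 3 and 24 after median-of-ratios rescaling. In the homologous recombination and Fanconi list, 30 of 33 fell in ZR-75-30 and 28 in HCC1500, and 3 were opposed (1 up and 2 down in ZR-75-30), against 6.13% and 3.28% of all tested genes.

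*RBBP8* (chr18:22914139-23026486), which encodes the end resection factor CtIP, was at 109.7, 106, 103 and 131 in ZR-75-30 at low glucose and at 68.7, 55.4, 65.4 and 47.3 at high glucose. In HCC1500 *RBBP8* was at 802, 790.3, 768 and 767 at low and 1219, 1196 and 1203 at high glucose, with 1189 in replicate 3. The conditions were separated in both lines and the difference was -1.54 ± 0.14 (adjusted p = 1.2e-07). *MUS81*, a nuclease for branched DNA, had changes of 0.51 ± 0.11 and -0.64 ± 0.12, but replicate 3 had 287 against 127 to 143 in its companions and with it the HCC1500 fall did not pass (adjusted p = 0.23). *BRCA1* was not opposed and fell by 0.93 and 1.16 on the log2 scale.

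Most calls among subunits of oxidative phosphorylation and ribosomal proteins were lost when replicate 3 was restored. Of 61 nuclear-encoded oxidative phosphorylation subunits, 35 had a higher and 4 a lower change in ZR-75-30, against 27.2% and 15.6% of all tested genes. The list held 11 opposed genes, all up in ZR-75-30, and its median difference was 0.25. The share opposed in that direction over all tested genes was 6.13%. With replicate 3 restored, 1 was higher, none was lower or opposed, and the median difference was -0.05. *COX4I1*, a subunit of cytochrome c oxidase, had changes of 0.30 ± 0.04 and -0.32 ± 0.04 and a replicate 3 value of 3782 against a mean of 1318 in its companions, and *SDHA*, a subunit of succinate dehydrogenase with 1887 exon bases in common with another gene on its strand, 0.37 ± 0.06 and -0.31 ± 0.06. Of 76 cytosolic ribosomal proteins, 73 rose in ZR-75-30 and 43 in HCC1500, 55 had a higher change in ZR-75-30 and 4 were opposed, and with replicate 3 restored none differed and the median difference went from 0.30 to -0.06.

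In the remaining lists the counts stand against 27.2% higher and 15.6% lower over all tested genes. Higher and lower changes in ZR-75-30 numbered 4 and 5 of 24 NF-kappaB and inflammatory targets, 4 and 9 of 20 p53 targets, 6 and 9 of 28 NRF2 antioxidant targets, 6 and 9 of 21 cytosolic heat shock proteins and 4 and 9 of 22 endoplasmic reticulum chaperones. They numbered 1 and 5 of 7 metallothionein and zinc response genes, 6 and 6 of 20 epithelial junction genes, 4 and 3 of 21 mesenchymal and matrix genes, 3 and 3 of 11 keratins, 5 and 4 of 16 mucins and secretory genes and 12 and 3 of 28 lysosomal genes. *TNFAIP2*, an NF-kappaB target, rose by 1.10 ± 0.07 and fell by 0.53 on the log2 scale, while *NFKB1*, the p50 precursor, had changes of -0.51 ± 0.06 and 0.36 ± 0.06. *BTG2*, an antiproliferative p53 target, had changes of -0.33 ± 0.04 and 0.72 ± 0.04. The metallothioneins *MT1E* and *MT1X*, zinc-binding proteins with closely related copies, had -0.89 ± 0.31 and 0.93 ± 0.33, and -0.68 ± 0.14 and 0.51 ± 0.15. *DSG2*, a desmosomal cadherin, had 0.86 ± 0.04 and -0.31 ± 0.05, *KRT80*, an epithelial keratin, 0.69 ± 0.05 and -0.44 ± 0.06, and *THBS1*, the matrix protein thrombospondin 1, -0.16 ± 0.04 and 0.65 ± 0.04. In the lysosomal list, where 23 of 28 rose in ZR-75-30 and 18 in HCC1500, *HEXA*, a subunit of hexosaminidase, had 0.41 ± 0.04 and -0.37 ± 0.05 (-0.17 with replicate 3, adjusted p = 0.42) and *GLA*, alpha-galactosidase, -0.26 ± 0.05 and 0.75 ± 0.06. *HSPB1*, a small heat shock protein, had 1.34 ± 0.05 and -0.24 ± 0.05, with 5510 in replicate 3 against a mean of 1471, and its difference did not pass with that library (adjusted p = 0.084). With the deposited scaling no gene was opposed among the endoplasmic reticulum chaperones or the mucins and secretory genes. After median-of-ratios rescaling, and with edgeR, 2 of the chaperones fell in ZR-75-30 and rose in HCC1500. The chaperones' higher and lower counts were then 4 and 15, and 1 and 2 with replicate 3 restored to the deposited scaling.

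**Figure D5:**
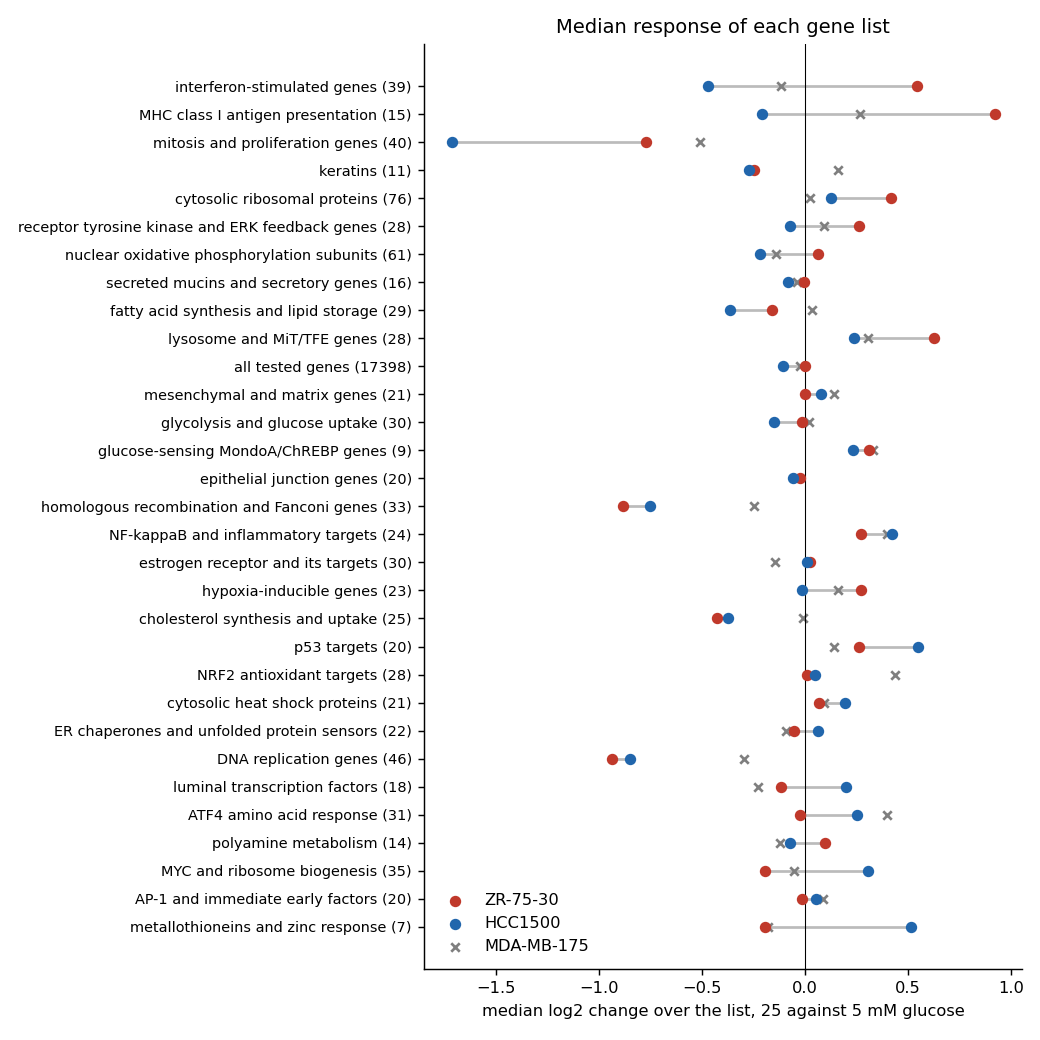
Median log2 change from 5 to 25 mM glucose over each gene list, with the number of tested genes in parentheses, in ZR-75-30 (red), HCC1500 (blue) and MDA-MB-175 (crosses), ordered by the median difference between the first 2 lines. Interferon-stimulated genes (0.54 and -0.47) and MHC class I genes (0.92 and -0.21) stand at one end, metallothioneins (-0.20 and 0.51) and MYC and ribosome biogenesis genes (-0.19 and 0.30) toward the other, and the mitosis genes are below 0 in all 3 lines.

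The opposed genes had a median mean value of 264 and 443 in the 2 directions, against 94.3 over all tested genes. Their median total exon length per gene was 5307 and 6127.5 bases against 4794. Protein-coding genes made up 95.8% and 98.8% of them against 84.0%. Calls in both lines favor genes with many reads, so these values cannot be read as traits of opposition. A comparison with all genes called in both lines was not made. The lines did not converge in general. Their values were closer at high than at low glucose for 45.7% and 43.8% of the opposed genes against 48.2% of all genes, and HCC1500 had the higher value at low glucose for 57.7% and 43.1% against 58.1%.

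MDA-MB-175, the study's other ER+ line under the same treatment, was not used to choose the opposed genes. In its own 8 libraries, 17029 genes were tested, of which 2030 rose (11.9%) and 2338 fell (13.7%). Of the genes that rose in ZR-75-30 and fell in HCC1500, 1059 were tested in MDA-MB-175, and 221 rose (20.9%) and 103 fell (9.73%). Of the reverse group, 570 were tested, and 45 rose (7.89%) and 90 fell (15.8%). Both groups thus had more calls in the direction of ZR-75-30 than of HCC1500, but most members did not pass in either direction, and the medians were 0.0437 and -0.0381. Among the groups, the interferon list had 6 genes up and 7 down of 37 tested in MDA-MB-175 and the MHC class I list 10 up and 1 down of 15. *NDRG1* rose by 1.90 on the log2 scale (adjusted p = 2.3e-06) as in ZR-75-30, *ASNS* rose by 0.83 (adjusted p = 4.0e-09) as in HCC1500, and *FOS* and *EGR1* fell by 0.65 and 0.64 on the log2 scale as in ZR-75-30.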

How the data were processed

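RNA-Seq profiles of 24 libraries (3 lines, 2 glucose conditions, 4 replicates each) were grouped by their titles. The authors deposited 1 normalized signal per gene and library. The labels' processing notes name edgeR and hg38. The study's methods describe a stranded TruSeq kit and TopHat with hg19 for its tumor RNA and do not say whether the same held for these lines, so the aligner and strand setting used for them are uncertain. Every deposited signal was a whole number of reads (within 0.05) divided by 1 factor per library, so reads were recovered for 100% of values. The scaling was kept as deposited. Recovered totals set counting precision only.

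On log2(value + 1), the 15 libraries were fitted to 4 group means without covariates by limma (version 3.58.1, R 4.3.3), using an intensity trend. All adjusted p-values are Benjamini-Hochberg values over all genes tested, from limma unless edgeR is named. The pseudocount of 1 understates changes of weakly expressed genes. MDA-MB-175 was fitted alone. Alternatives used edgeR 4.0.16 (quasi-likelihood) and DESeq2 1.42.0 on recovered reads, other scalings, pseudocounts, filters and thresholds, and left libraries out. Scripts were tested on simulated data.

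The members, the 30 gene lists and the tests were chosen with earlier results of these data known. Genes named were, in each direction, the 8 opposed genes with the largest smaller change among those with a mean of at least 10 in 1 condition of each line, no overlap between conditions and opposition under every scaling and edgeR. Added were the 4 highest and 4 lowest differences, up to 2 opposed genes per list, and *TXNIP*, *ARRDC4*, *MGLL*, *AMD1* and *FAM107B*. Other genes with values, apart from the cell type markers, were chosen after these were seen. Coordinates and promoters are from RefSeq GRCh38.p14, 1-based. Exon lengths, meaning the total exon bases of a gene, and exon bases in common are from GENCODE 44 on GRCh37, which matched 96.3% of genes. Symbols listed under more than 1 identifier (87) were read from the identifier with the highest mean. Some items withheld for evaluation are not reported here.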

Additional observations from a re-analysis of the deposited data

Results flagged for a closer look

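A different response in the 2 lines, by the test of the difference itself, was found for 7437 genes, with 1066 up in ZR-75-30 and down in HCC1500 and 571 the reverse. Of the genes chosen for the largest changes, the log2 difference was 3.02 for *IFITM1*, 2.67 for *PPM1J*, 2.65 for *ATHL1*, 2.36 for *ATG16L2*, 2.38 for *NDRG1*, 2.18 for *CERCAM*, 2.72 for *MEGF6* and 2.09 for *TIMP3*. It was -4.32 for *DIO2*, -3.39 for *FOS*, -2.67 for *PTRF*, -2.45 for *HIST2H4A*, -2.32 for *DHRS2*, -2.0 for *EGR1*, -1.55 for *PCNT* and -1.69 for *IKBIP*. The highest and lowest differences further included *MYO15B* (3.83), *PPP1R3B* (3.23), *IFIT1* (3.20), *RP11-496I9.1* (3.16) and *PFKP* (-3.45).

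A single library lay apart from the other 3 of its group in 9 of 84 groups examined. For independent groups chance gives about 1 in 20. These groups share the same libraries, and most of the genes were chosen for separation without replicate 3, so that rate is no test here. In 5 of the 9 it was HCC1500 high glucose replicate 3, with a gap to the nearest library, as a share of the whole range, of 0.908 in *PPM1J*, 0.938 in *CERCAM*, 0.869 in *PTRF*, 0.849 in *IFIT1* and 0.849 in *RP11-496I9.1*. In *PPM1J*, *CERCAM*, *IFIT1* and *RP11-496I9.1* the library lay on the side of the low glucose values, and in *PTRF* further from them. In ZR-75-30 high glucose it was replicate 1 in *FOS* (0.851) and *EGR1* (0.859), replicate 3 in *PTRF* (0.982) and replicate 4 in *PFKP* (0.889).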

How the results depend on the processing

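The counts of genes that differed, rose in ZR-75-30 and fell in HCC1500, and did the reverse were 7437, 1066 and 571. Restoring HCC1500 high glucose replicate 3 gave 3685, 344 and 167, and doing so with median-of-ratios rescaling, chosen after seeing the data, 3946, 311 and 236. With sample weights in place of leaving it out the counts were 7641, 1116 and 557. An adjusted p under 0.01 left 688 and 359 opposed genes, and a size threshold (a difference of at least 1, or 0.5 in each line) gave 1715, 223 and 38. Leaving out 1 further library gave 6943 to 7470, 954 to 1143 and 495 to 566. The 2 opposed counts were 1066 and 571 as deposited, 794 and 824 with median-of-ratios rescaling, 961 and 766 with equal totals, 904 and 804 with edgeR and 753 and 778 with DESeq2, and the share of differing genes higher in ZR-75-30 was 63.5%, 51.3%, 56.8%, 52.9% and 50.1%.

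Libraries of the same number showed no shared deviation (correlations of deviations within a number from -0.05 to 0.06 across genes). Whether their cultures were set up together is not settled by this. A fit with the replicate block gave 6974, 996 and 503.

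Of 71 named genes, 55 kept the direction of the difference between the lines and its side of the threshold in every alternative. This count does not cover the opposed call, which also needs both single-line changes. With replicate 3 restored, *SLC7A11* and *TAPBP* kept the difference, but their HCC1500 changes did not pass (adjusted p = 0.56 and 0.11). The 8 genes chosen in each direction had to be opposed under median-of-ratios rescaling, equal totals and edgeR, so passing there was set by the choice. The difference for *ARRDC4* (0.03) changed sign to -0.0718 with median-of-ratios rescaling, -0.0322 with equal totals, -0.0473 with edgeR, -0.0689 with DESeq2 and -0.0208 with replicate 3 and median-of-ratios rescaling, and ran from -0.0775 to 0.103 when 1 library was left out, below 0 without ZR-75-30 high replicate 3, HCC1500 low replicate 4 or HCC1500 high replicate 1. The 15 others kept their call with sample weights and lost it when replicate 3 was restored at full weight, where the difference grew for *CLDN4* (-0.46 to -0.78) and *KRT8* (-0.49 to -0.77), went from 1.22 to 0.95 for *STARD4* and from 1.58 to 1.11 for *HSPB1*, and from -0.53 to -0.10 for *EHF*. They were *STARD4*, *AGPAT2*, *HSPB1*, *HSP90AB1*, *PIR*, *ESR1*, *EHF*, *FDXR*, *RPS4X*, *RPL10A*, *DHPS*, *SDHA*, *COX4I1*, *CLDN4* and *KRT8*. Values under about 3 reads are not resolved at this depth.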
